A study of Homo sapiens with 6 samples.

Results

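The core histones H2A, H2B, H3 and H4 and the linker histone H1 are encoded by families of small genes, most of which lie in clusters. Members were taken by symbol, as the protein-coding genes whose GENCODE symbol begins with H1-, H2AC, H2BC, H3C or H4C. The annotation holds 74 such genes, and 72 of them were matched by identifier among the 60612 genes of each table. The 71 described here comprised 9 H1, 15 H2A, 19 H2B, 13 H3 and 15 H4 genes. H2AC18 and H2AC19 were not analysed here.

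RNA was measured in HCT116, a human cell line established from a colorectal carcinoma, 72 h after infection with a lentivirus. The control lentivirus, LV-NC, carried a control insert (3 libraries), and LV-SNORA28 carried the H/ACA small nucleolar RNA SNORA28 (3 libraries). The study asked which genes change when SNORA28 is overexpressed. All libraries were made from RNA selected on oligo(dT) beads, so they favour RNA with a poly(A) tail. The promoter that drives the insert was not stated in the sources used here. Nothing says that the libraries came from separate cultures, so the p-values measure only the spread between these samples, which may be technical.

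Most clustered histone genes are transcribed in S phase, when new DNA is packaged. Their messages end in a short stem-loop instead of a poly(A) tail. The stem-loop is bound by SLBP, and the 3' end is cut just after it. Other histone genes make ordinary polyadenylated messages through the whole cell cycle, and H1-10 is a linker histone of that kind. Some clustered genes are known to make a longer polyadenylated message as well, mainly in cells that leave the cycle.

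The annotated transcripts of the members followed these kinds of 3' end. A 16-base pattern of the histone stem-loop, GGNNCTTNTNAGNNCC on the transcript strand, was found in 67 of 71 members (94.4%) and in 120 of 19974 other protein-coding genes (0.601%). The 4 members without it were H1-10, H1-7, H1-8 and H2BC12L. A poly(A) signal, AATAAA or ATTAAA in the last 50 bases of an annotated transcript, was found for 20 of 71 members (28.2%) and for 85.8% of the other protein-coding genes. In H2BC9 and H4C11 it lies before the stem-loop of the only annotated transcript, which ends just after the stem-loop. Of the 71 members, 54 had no intron in any annotated transcript, and 55 lie on chromosome 6 and 11 on chromosome 1. The matches are descriptions of the annotation and do not show which 3' end these cells used.

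The stem-loops of the 7 members that had this pattern and reached a mean of 1 FPKM are shown because this element takes the place of the poly(A) tail in most histone messages. Capitals mark the 16-base match, and each sequence is read on the transcript strand of GRCh38, with its genome strand in brackets.
H1-2, chr6:26055740-26055764 (-): caaaaGGCTCTTTTCAGAGCCacca
H2BC12, chr6:27146361-27146386 (-): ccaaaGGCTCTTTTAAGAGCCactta
H2AC25, chr1:228457364-228457389 (-): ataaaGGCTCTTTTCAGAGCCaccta
H2AC6, chr6:26124664-26124689 (+): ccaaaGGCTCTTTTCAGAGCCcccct
H2BC5, chr6:26158582-26158607 (+): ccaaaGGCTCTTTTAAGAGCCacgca
H4C12, chr6:27831174-27831198 (-): caaaaGGCCCTTTTTAGGGCCccca
H2AC20, chr1:149887386-149887411 (+): ccaaaGGCTCTTTTTAGAGCCaccca

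The core of H1-2, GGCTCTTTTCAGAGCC, was the most common and stood in 38 members, while that of H2BC12, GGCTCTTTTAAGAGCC, stood in 9. The only annotated transcript of H1-2 ends 4 bases after the match and that of H2BC12 ends 5 bases after it. Neither holds a poly(A) signal in its last 50 bases. H2AC25, H2AC6 and H2BC5 also have a longer annotated transcript that ends after a poly(A) signal, and the stem-loop is absent from that transcript of H2BC5.

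The ends of the 4 most abundant members with a poly(A) signal are shown for contrast, with the signal in capitals.
H1-10, chr3:129314777-129314802 (-): ttttgggcacAATAAAgcgtttaaac
H2AC25, chr1:228456987-228457012 (-): tttatctgatATTAAAagtatttatg
H2BC5, chr6:26171315-26171340 (+): agttataattAATAAAatctgcggag
H2AC6, chr6:26139078-26139103 (+): ggcatgaggtAATAAAaggtaatgca

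Few histone genes were well represented. Values are FPKM, a unit that divides the fragments of a gene by its length and by all mapped fragments. Of the 71 members, 8 reached a mean of 1 FPKM over the 6 libraries, 48 lay below it and above 0, and 15 were listed at 0 in every library. The highest value of any library among the 63 members below the limit was 1.49 FPKM. H1-10 was the highest of the 71, with a mean of 55.3 FPKM, and H2BC12 followed with 20.8 and H1-2 with 9.61.

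Among members with a stem-loop, levels followed the annotated 3' ends in part. The median of the mean FPKM was 0.0550 in the 49 members with a stem-loop and no poly(A) signal. It was 0.546 in the 18 members with both, which include H2BC9 and H4C11, whose signal lies before the stem-loop. Of those 18 members, 14 had a mean of at least 0.1 FPKM (77.8%), against 22 of 49 with a stem-loop alone (44.9%). H2BC12 and H1-2, which have a stem-loop alone, nevertheless stood next to H1-10 in level. The 4 members without a stem-loop had the lowest median, 0.0267, and 1 of them, H1-10, had a mean of at least 0.1 FPKM (25%). H1-8, which has a poly(A) signal and no stem-loop, was listed at 0 in every library. No test was made of these levels, since several members share sequence and none is a replicate.

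**Figure D1:**
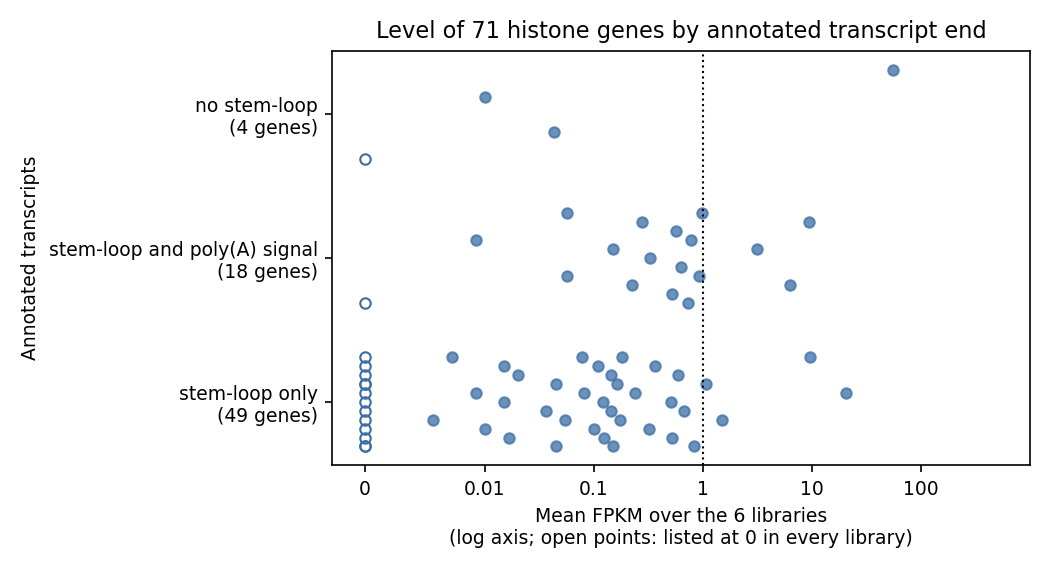
Mean FPKM over the 6 libraries (horizontal, log axis) of each of 71 histone genes, in rows by the 3' ends of their annotated transcripts, with open points for the 15 genes listed at 0 and a dotted line at 1 FPKM. The highest point is H1-10 in the row without a stem-loop, where every other gene lies below 0.1 FPKM. Most genes with a stem-loop alone also lie below 0.1 FPKM.

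Before the groups were compared, the libraries were checked against their labels. SNORA28 measured 0.920, 0 and 0.640 FPKM across LV-NC and 15.0, 13.7 and 15.2 across LV-SNORA28 (log2 fold change 3.41, SE 0.23, limma adjusted p 0.00228). The epithelial markers EPCAM, CDH1, KRT8, KRT18 and KRT19 summed to between 758 and 846 FPKM in LV-NC and to between 780 and 827 in LV-SNORA28. The 6 markers of leukocytes, fibroblasts and endothelium summed to between 3.36 and 4.51 and to between 3.19 and 4.13, nearly all of it COL1A1, and the defining leukocyte gene PTPRC was at most 0.0800. Mitochondrial genes took between 42.7% and 47.7% of all FPKM across LV-NC and between 35.9% and 38.3% in LV-SNORA28, a difference that moves with the groups and whose part in the results was not tested. Values scaled to the nuclear sum are given for the called members and for the genes that lost a call under that scaling.

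Of the 8 members tested, 1 rose and 1 fell in LV-SNORA28. H1-2, a linker histone, rose 1.61-fold between group means, and H2BC12, a core histone H2B gene, fell to 0.694 of its control mean. The calls are at a limma adjusted p below 0.05 over the 12076 genes that averaged 1 FPKM or more. Of these genes 8.91% were called, 6.81% as higher and 2.1% as lower, and nothing is read from the share of so few members. At an unadjusted p below 0.05 there were 5 of 8 members, where 28% of all genes tested had one. By the study's own rule, a fold above 1.5 together with an unadjusted p below 0.05, there was 1 member, H1-2, where 3.79% of all genes tested passed, with the fold taken on the log2(FPKM + 1) scale. H2AC6 fell just short on that scale and had a ratio of FPKM means of 1.78. Of all genes called, 822 were higher and 254 lower, and the split was 451 to 375 after quantile normalization. In these bulk samples, a change in the share of cells that express a gene cannot be told apart from a change in RNA per cell. H1-2 and H2BC12 have a stem-loop and no poly(A) signal in their annotated transcripts. After oligo(dT) selection, a change in the polyadenylated part of their RNA cannot be told apart from a change in their total RNA.

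H1-2 (ENSG00000187837; chromosome 6, 26055740 to 26056470, minus strand) measured 6.54, 8.30 and 7.29 FPKM across LV-NC and 12.02, 11.55 and 11.95 across LV-SNORA28. Every LV-SNORA28 library lay above every LV-NC library, and the LV-SNORA28 values spread less. The log2 fold change was 0.62 (SE 0.09, 95% confidence interval 0.41 to 0.83) on the log2(FPKM + 1) scale, with a limma adjusted p of 0.0128. Scaled to the nuclear sum it was 0.60, with a limma adjusted p of 0.0144. The call was lost without LV-SNORA28 replicate 2 (limma adjusted p 0.0516) and without LV-SNORA28 replicate 3 (0.0553), at log2 fold changes of 0.64 and 0.62. All 100-base windows of its transcript were unique among annotated transcripts.

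H2BC12 (ENSG00000197903; chromosome 6, 27146361 to 27146855, minus strand) measured 25.4, 23.6 and 24.6 FPKM across LV-NC and 17.6, 16.9 and 16.6 across LV-SNORA28. The groups lay well apart, with a gap larger than the range within either. The log2 fold change was -0.50 (SE 0.06, 95% confidence interval -0.64 to -0.36), with a limma adjusted p of 0.00797. It was -0.53 when scaled to the nuclear sum, and the call held without any 1 library. Of its 100-base windows, 77.5% were unique, and the rest were shared with H2BC12L on chromosome 21 and with ENSG00000274559, each of which was listed at no more than 0.1 FPKM in every library.

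**Figure D2:**
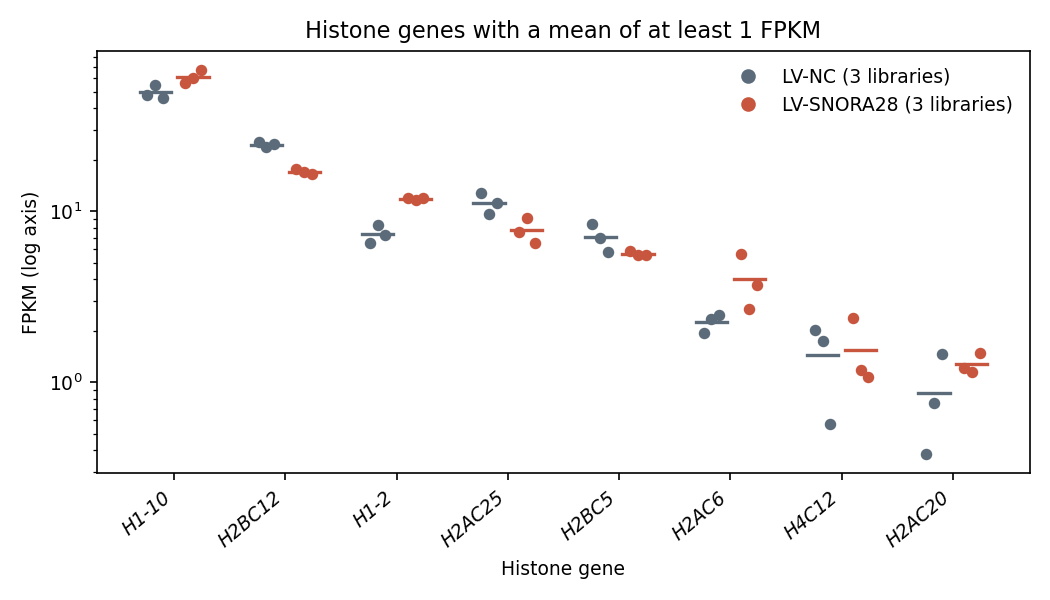
FPKM (vertical, log axis) of the 8 histone genes that averaged 1 FPKM or more, with a point for each library and a line at each group mean (3 libraries a group). H1-2 lies between 11.55 and 12.02 FPKM in LV-SNORA28, above all LV-NC values, and H2BC12 lies between 16.6 and 17.6, below all LV-NC values.

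H1-10, a linker histone outside the clusters, measured 47.8, 54.8 and 46.1 FPKM across LV-NC and 56.3, 60.1 and 66.9 across LV-SNORA28. There was no overlap between groups, yet the adjusted p missed the threshold. H1-10 had a log2 fold change of 0.30 (SE 0.09, 95% confidence interval 0.07 to 0.52), with a limma adjusted p of 0.0987. Of the other 7 H1 genes, H1-4 had the highest mean, at 0.173 FPKM, and H1-1, H1-5 and H1-8 were listed at 0 in every library.

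Among H2A genes, H2AC25 and H2AC6 had opposite signs. H2AC25 measured 12.7, 9.59 and 11.2 FPKM across LV-NC and 7.60, 9.15 and 6.48 across LV-SNORA28. There was no overlap between groups, although LV-NC replicate 2 and LV-SNORA28 replicate 2 lay close together. The log2 fold change was -0.48 (SE 0.14), with a limma adjusted p of 0.0854. H2AC6 measured 1.95, 2.36 and 2.48 FPKM across LV-NC and 5.66, 2.69 and 3.72 across LV-SNORA28.

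LV-SNORA28 replicate 1 was the highest of the H2AC6 values by a wide margin, and the groups did not overlap. The log2 fold change was 0.58 (SE 0.21, limma adjusted p 0.132), and it was 0.36 without LV-SNORA28 replicate 1 (limma adjusted p 0.203). The third H2A gene tested, H2AC20, measured 0.380, 0.760 and 1.46 FPKM across LV-NC and 1.21, 1.15 and 1.48 across LV-SNORA28. Its groups overlapped (log2 fold change 0.33, SE 0.21, limma adjusted p 0.359), and the change was 0.13 without LV-NC replicate 1. Of its 100-base windows, 87.3% were unique, the others being shared with H2AC18 and H2AC19.

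Among H2B genes, H2BC5 was the only tested member beside H2BC12. It measured 8.41, 6.99 and 5.80 FPKM across LV-NC and 5.82, 5.56 and 5.55 across LV-SNORA28. The LV-SNORA28 values were close to each other and met the lowest LV-NC value, so the groups overlapped. H2BC5 had a log2 fold change of -0.27 (SE 0.12, limma adjusted p 0.208), and of -0.15 without LV-NC replicate 1. The summed FPKM of all 19 H2B genes was 37.2, 33.3 and 33.4 in LV-NC and 27.9, 26.1 and 25.1 in LV-SNORA28. These sums did not overlap, and H2BC12 made up most of them.

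The H3 and H4 genes were nearly absent from these libraries. All of them carry the stem-loop pattern, and after oligo(dT) selection these values do not give their level in the cells. No H3 gene reached a mean of 1 FPKM, and the 13 genes together summed to between 2.00 and 2.67 FPKM in LV-NC and to between 2.34 and 2.78 in LV-SNORA28. The highest, H3C6, measured 1.12, 0.940 and 0.710 FPKM across LV-NC and 1.17, 0.970 and 0.980 across LV-SNORA28. H4C12, the only H4 gene tested, measured 2.01, 1.75 and 0.570 FPKM across LV-NC and 2.39, 1.18 and 1.07 across LV-SNORA28.

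Both H4C12 groups spread widely (log2 fold change 0.08, SE 0.30, limma adjusted p 0.891), and the sign turned without LV-NC replicate 3 (-0.21) and without LV-SNORA28 replicate 1 (-0.15). Only 8.68% of the 100-base windows of H4C12 were unique, the rest being shared with H4C11, so the split of reads between the pair is uncertain. H4C11 and H4C12 together summed to 3.31, 2.08 and 0.970 FPKM in LV-NC and to 2.69, 2.42 and 2.14 in LV-SNORA28, which overlap as well. In all, 21 members shared at least 1 window of 100 bases with another gene, and in 8 of them fewer than 10% of windows were unique.

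Some tested members overlap other annotated genes. On the same strand, H2BC5 overlaps the pseudogene LARP1P1, which was listed at no more than 0.0800 FPKM in any library, and H2AC25 overlaps RPL23AP15, at no more than 0.1 FPKM. H2BC5 also overlaps ENSG00000291336 and ENSG00000291338, and H2AC6 overlaps ENSG00000291336, which were not analysed here, so the reads of H2BC5 and H2AC6 are uncertain to that extent. On the other strand, H1-10 overlaps H1-10-AS1 (0.0200 to 0.150 FPKM) and H2BC5 overlaps ENSG00000283064 (0 to 0.290 FPKM). H1-2 and H2BC12 overlap no other gene of the tables.

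**Figure D3:**
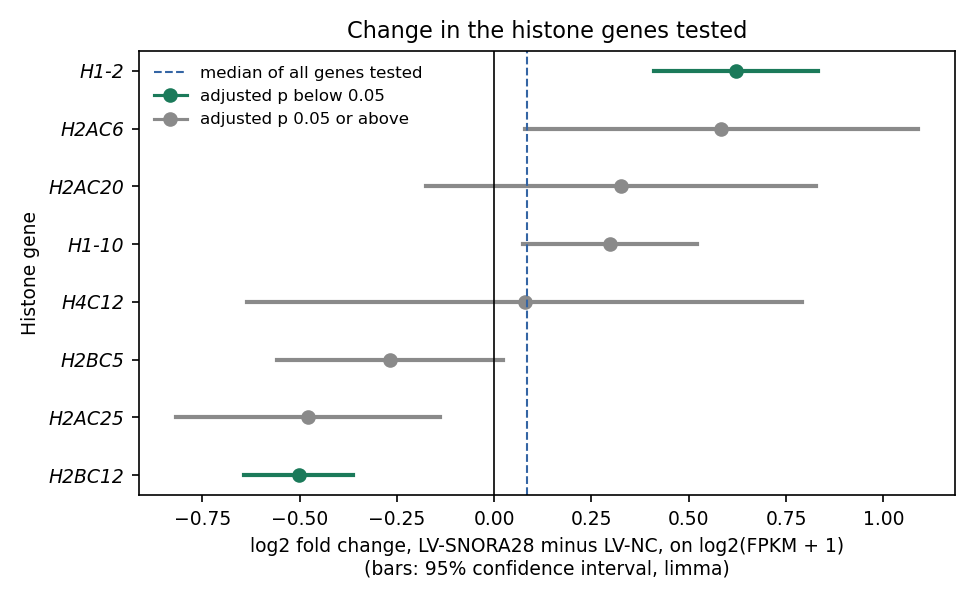
Log2 fold change (LV-SNORA28 minus LV-NC, on log2(FPKM + 1), horizontal) of the 8 histone genes tested, with bars for the 95% confidence interval from limma, green for an adjusted p below 0.05, and a dashed line at the median of all genes tested (0.09). H1-2 at 0.62 and H2BC12 at -0.50 stand at opposite sides of the line, and the intervals of H2BC5, H4C12 and H2AC20 include 0.

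Groups did not overlap in 5 of the 8 members tested, where 35.1% of all genes tested did not overlap. These were H1-2, H1-10 and H2AC6, which were higher in LV-SNORA28, and H2BC12 and H2AC25, which were lower. The median log2 fold change of these 8 members was 0.19, beside 0.09 for all 12076 genes tested, and it was -0.27 over the 5 of them that averaged 5 FPKM or more. Over the same 8 members it was 0.018 without LV-NC replicate 3 and 0.10 without LV-SNORA28 replicate 1. Members lay on both sides of 0, with 5 above and 3 below, where 8059 of all 12076 genes tested lay above 0. The signs of the 5 non-overlapping genes were the same after quantile normalization and after scaling to the nuclear sum.

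The 63 members below 1 FPKM were read from a fit without a filter on low values, over 32761 genes, in which 1.21% of genes had an adjusted p below 0.05. None of the 48 members above 0 was among them in limma, and the smallest adjusted p was 0.130. At an unadjusted p below 0.05 there were 4 of 48, where 14.5% of all genes in that fit had one. These were H2AC13, H2BC17 and H2BC8, which were higher, and H2BC7, which was lower, named after their values were seen. H2BC8, with the smallest p, measured 0.0300, 0.0100 and 0 FPKM across LV-NC and 0.0900, 0.0800 and 0.0600 across LV-SNORA28. Values this near 0 cannot be weighed without the read counts.

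The 6 next most abundant members showed no clear order of the groups. H2BC4 ranged from 0.780 to 0.970 FPKM in LV-NC and from 0.570 to 1.49 in LV-SNORA28, and H4C11 ranged from 0.330 to 1.30 and from 0.300 to 1.24. H4C9 ranged from 0.800 to 0.900 and from 0.720 to 0.920, H2BC21 from 0.640 to 1.13 and from 0.490 to 0.810, and H2AC11 from 0.510 to 0.830 and from 0.590 to 0.850. All of these ranges overlapped, as did that of H3C6.

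Most replacement histones are made outside S phase too and have polyadenylated messages. In these libraries the most abundant replacement histones lay far above the clustered genes of the same kind. The oligo(dT) selection favours polyadenylated RNA, so this contrast does not compare the levels in the cells. The H3.3 genes H3-3A and H3-3B summed to between 121 and 165 FPKM over the 6 libraries, where all 13 clustered H3 genes reached at most 2.78. The H2A.Z genes H2AZ1 and H2AZ2 summed to between 143 and 213 FPKM. The 15 clustered H2A genes described here, without H2AC18 and H2AC19, summed to between 13.9 and 18.1. Other replacement histones were lower, such as H2AJ, with a mean of 2.77 FPKM, and CENPA, with 5.90, both below the means of H2BC12, H1-2 and H2AC25. H2AJ and CENPA were named after their values were seen. All 10 replacement histones passed the filter and none had an adjusted p below 0.05 in limma, while 2 had an unadjusted p below 0.05 (28% of all genes tested had one).

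Their median log2 fold change was 0.10. H3-3A measured 37.0, 39.1 and 34.6 FPKM across LV-NC and 42.0, 44.1 and 38.4 across LV-SNORA28 (log2 fold change 0.17, SE 0.08, limma adjusted p 0.218). H3-3B measured 99.9, 96.8 and 91.2 FPKM and 78.8, 121 and 98.7 (0.03, SE 0.15, limma adjusted p 0.912), with a sign that turned after quantile normalization. H2AZ1 measured 128, 137 and 142 FPKM and 169, 136 and 195 (0.28, SE 0.13, limma adjusted p 0.222), and the log2 fold change was 0.16 without LV-SNORA28 replicate 3. The groups overlapped in H3-3A, H3-3B and H2AZ1. They did not overlap in 2 of the 10 replacement histones, where 35.1% of all genes tested did not overlap. These were CENPA (log2 fold change 0.41, SE 0.11, limma adjusted p 0.0611) and H2AZ2 (0.19, SE 0.07, limma adjusted p 0.130). Both were higher in LV-SNORA28, and both were picked out after their values were seen.

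Genes that make and process histone messages were mostly close to the median of all genes. Of 22, 2 rose and none fell, with a median log2 fold change of 0.08. CDK2, a kinase that acts at the start of S phase, measured 7.18, 7.86 and 8.11 FPKM across LV-NC and 11.7, 11.7 and 12.2 across LV-SNORA28 (log2 fold change 0.56, SE 0.07, limma adjusted p 0.00880). CPSF3, the nuclease that cuts histone and polyadenylated messages, measured 16.1, 17.9 and 18.6 FPKM and 23.6, 24.3 and 22.6 (0.41, SE 0.07, limma adjusted p 0.0233).

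Both rose in every LV-SNORA28 library above every LV-NC library. CDK2 kept its call without any 1 library, and CPSF3 lost it without LV-NC replicate 2 or without any 1 LV-SNORA28 library, with limma adjusted p-values of up to 0.0900. SLBP, the stem-loop binding protein, measured 36.0, 35.5 and 39.8 FPKM across LV-NC and 34.5, 42.5 and 40.8 across LV-SNORA28 (0.08, SE 0.09, limma adjusted p 0.633). NPAT, the activator of clustered histone genes, measured 2.40, 2.21 and 2.74 FPKM and 2.60, 2.08 and 2.77 (0.01, SE 0.11, limma adjusted p 0.959), and its sign turned after quantile normalization and after scaling to the nuclear sum. The groups overlapped for both.

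Of 25 histone chaperones and their partners, 2 rose and none fell, with a median log2 fold change of 0.12. CABIN1, a subunit of the HIRA complex that deposits H3.3, measured 4.87, 3.49 and 4.29 FPKM across LV-NC and 8.20, 7.06 and 7.86 across LV-SNORA28 (log2 fold change 0.75, SE 0.11, limma adjusted p 0.0162). ASF1A, a chaperone of H3 and H4, measured 7.85, 8.10 and 6.83 FPKM and 10.01, 10.3 and 10.4 (0.39, SE 0.08, limma adjusted p 0.0308). Neither gene overlapped between groups. CABIN1 lost its call without LV-NC replicate 3, LV-SNORA28 replicate 1 or LV-SNORA28 replicate 3 (limma adjusted p of up to 0.0660), and ASF1A lost it without any 1 of the 6 libraries (up to 0.107).

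Of 25 S phase genes, 3 rose and none fell, with a median log2 fold change of 0.17. MCM6, a subunit of the replicative helicase, measured 10.4, 11.4 and 13.9 FPKM across LV-NC and 30.3, 32.4 and 34.3 across LV-SNORA28 (log2 fold change 1.37, SE 0.11, limma adjusted p 0.00286). GINS4, another helicase component, had 0.48 (SE 0.11, limma adjusted p 0.0490) and PRIM1, a primase subunit, 0.43 (SE 0.10, limma adjusted p 0.0475). MCM6 kept its call without any 1 library. Scaled to the nuclear sum, GINS4 (0.46, limma adjusted p 0.0592) and PRIM1 (0.40, limma adjusted p 0.0549) lost theirs. GINS4 lost it without any 1 of the 6 libraries (limma adjusted p of up to 0.146), and PRIM1 lost it without any but LV-SNORA28 replicate 1 (up to 0.137). The shares called, 9.09% of the genes for histone messages, 8.00% of the chaperones and 12% of the S phase genes, lie near the 8.91% of all genes tested.

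**Figure D4:**
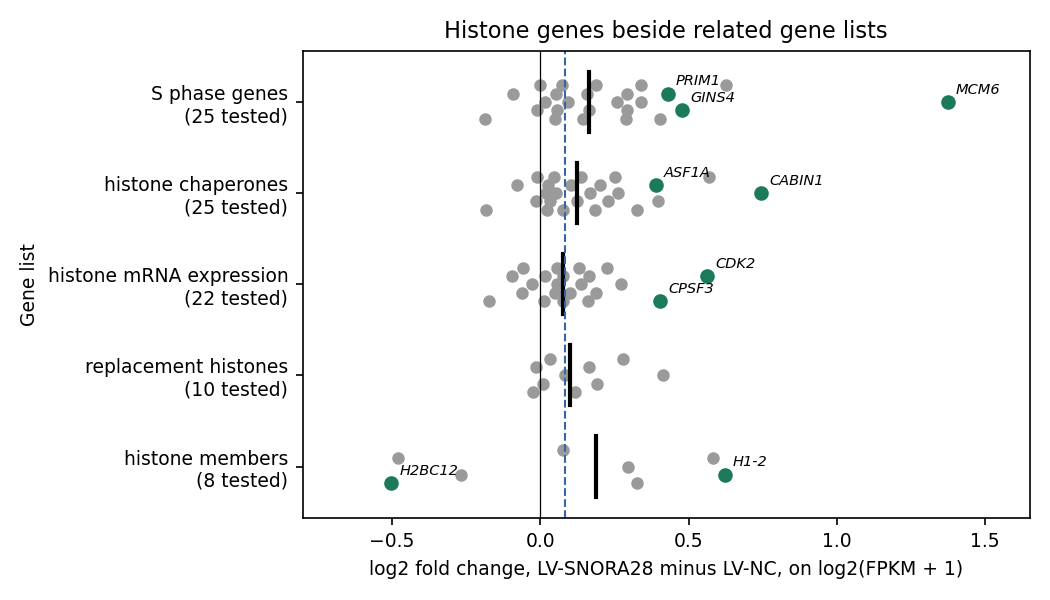
Log2 fold change (LV-SNORA28 minus LV-NC, on log2(FPKM + 1), horizontal) of each tested gene in 5 lists, with green named points for an adjusted p below 0.05, a black bar at the median of each list and a dashed line at the median of all genes tested (0.09). The 8 histone genes lie on both sides of the line from -0.50 to 0.62, and each green point in the other lists lies above it.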

How the data were processed

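RNA of 6 libraries, 3 LV-NC and 3 LV-SNORA28, was read as paired ends after oligo(dT) selection and dUTP strand marking. The authors deposited 1 table of FPKM values per library. The submitters' processing notes name cutadapt 1.9, HISAT2 2.2.1, StringTie 2.1.6, DESeq2, edgeR and the build hg38, and the annotation release is not given in the sources used here. Mapped totals were unknown, so no counting interval was attached and the precision of low values rests on the spread between libraries. Whether values were computed with strand is not given either. Symbols, transcripts and sequences came from GENCODE 44 on GRCh38.

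Values were transformed to log2(FPKM + 1), which understates changes of low genes. Genes that averaged 1 FPKM or more were fitted with limma 3.58.1 in R 4.3.3 with a mean-variance trend, without covariates. The tests were two-sided, with Benjamini-Hochberg adjustment over all genes tested. The fit was tested on simulated data. Features were counted in Python 3.11.15, with windows of 100 bases compared between annotated transcripts on the same strand.

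Members and lists were chosen with earlier results of these data known. Members were named if called, among the 15 most abundant, or the most abundant of a family. From other lists, called genes (at most 8 a list) were named, with SLBP, NPAT, H3-3A, H3-3B and H2AZ1. Alternatives were quantile normalization, scaling to the nuclear sum, a fit without the trend, other filters, a pseudocount of 0.1, the threshold of the study, the replicate number as a block, and each library left out. A joint change of filter and pseudocount, and a median over the same 8 members with each library left out, were added after seeing the data. Protein comparisons were not made. The result of 1 member is not reported here. That member is left out of the counts and medians of members, and no sum over all members is given.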

Additional observations from a re-analysis of the deposited data

How the results depend on the processing

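The depth is unknown, which limits statements on members near or below 1 FPKM. H2BC12 kept its direction and its adjusted p below 0.05 in every alternative fit, and H1-2 kept its direction. At the threshold of the study (unadjusted p below 0.05 and a fold above 1.5, here on the log2(FPKM + 1) scale) the count of members was 1, H1-2 alone. That threshold gave 0 genes for histone messages, 1 chaperone, 1 S phase gene and 458 of all genes. On ratios of FPKM means, H2AC6 (1.78), CDK2 (1.54) and GINS4 (1.52) also lie above 1.5. Without a filter, where more genes are tested, the counts were 1, 1, 1 and 397. Quantile normalization gave 3 genes for histone messages, 2 higher and 1 lower, and 1 chaperone. That normalization, the fit without a trend and the nuclear scaling each gave 1 S phase gene. The median log2 fold change of the members was -0.27 among the 5 that averaged 5 FPKM or more, and 0.034 over the members above 0 without a filter, beside 0.19.

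Leaving out 1 library at a time, the counts ranged from 1 to 2 for members, 1 to 2 for genes of histone messages, 0 to 1 for chaperones, 1 to 2 for S phase genes and 278 to 629 for all genes, with fewer samples in each fit. The median of the members lay between -0.10 and 0.25, but the filter was applied anew each time and changed which members entered. With the same 8 members kept, a choice made after seeing the data, it lay between 0.018 (without LV-NC replicate 3) and 0.25. H4C12 ranged from -0.21 to 0.26, H3-3B from -0.12 to 0.19 (-0.0035 without LV-NC replicate 3 and -0.12 without LV-SNORA28 replicate 2) and NPAT from -0.048 to 0.10 (-0.04 without LV-NC replicate 2, -0.015 without LV-SNORA28 replicate 1 and -0.048 without LV-SNORA28 replicate 3). Quantile normalization gave -0.068 for H3-3B and -0.073 for NPAT, and the nuclear scaling -0.0076 for NPAT. The cause was not tested.

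The replicate numbers showed no pairing: across genes, same-numbered libraries deviated from their groups with correlations of -0.0441, 0.0914 and 0.00983. A fit with the number as a block called 510 genes, among them 2 members, 1 gene for histone messages and 1 chaperone, and the adjusted p of H1-2 was 0.0477 in limma.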

Other observations

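Beside the protein-coding genes, 20 loci carry a histone symbol of the same form, 19 of them pseudogenes and 1 a long noncoding RNA. Of these, 12 were listed at 0 in every library and 2 had a mean of at least 1 FPKM. H2BC19P (chromosome 1, 149843041 to 149843533), a pseudogene, measured 2.89, 2.44 and 0.980 FPKM across LV-NC and 2.43, 2.44 and 1.67 across LV-SNORA28. H2BC20P (chromosome 1, 149850193 to 149850772), also a pseudogene, measured 1.11, 1.16 and 1.69 FPKM and 1.17, 0.900 and 1.81. The groups overlapped in both, with limma adjusted p-values of 0.867 and 0.936. Their mean levels of 2.14 and 1.31 FPKM lay above that of each of the 13 clustered H3 genes.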
